A study of Mus musculus with 4 samples.

Results

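The AP-1 transcription factors and their immediate early companions were followed in tumor repopulating cells (TRCs) of the mouse melanoma line B16F1 and in the parental B16F1 control cells. The 10 genes are the FOS family (*Fos*, *Fosb*, *Fosl1*, *Fosl2*), the JUN family (*Jun*, *Junb*, *Jund*), *Atf3*, *Egr1* and *Ier3*, found by their Ensembl identifiers among the 39179 genes of the count files. *Egr1* encodes a zinc finger factor and *Ier3* a short-lived regulator of cell survival, so neither is an AP-1 subunit, and both belong here only as immediate early genes. RNA-seq was run on 2 control samples and 2 TRC samples, which carry the replicate numbers 1 and 3 in both groups. Control cells are the parental line, for which the study describes culture on rigid dishes, and TRCs are the cells of that line that formed spheroids from single cells in soft fibrin gels of 90 Pa stiffness, isolated on day 5. The sample labels give no gene deletion and no drug for either group, and both groups come from 1 cell line. Growth in the gel, selection of the surviving cells and isolation from the gel go together in both TRC libraries and cannot be told apart.

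AP-1 is a pair of basic leucine zipper (bZIP) proteins, most often a FOS protein with a JUN protein, that binds short DNA elements in promoters and enhancers. FOS proteins pair with JUN proteins and not with themselves, while JUN proteins can also pair with each other. Most genes of the group are known as immediate early genes, switched on within minutes of a growth or stress signal by kinases of the MAPK pathways acting on factors already in the cell, and their mRNAs are short-lived. *Jund* is largely constitutive, and *Fosl1* and *Fosl2* respond later than *Fos*. In melanoma cells the RAF-MEK-ERK branch of these pathways is known as a main input to them.

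Promoter sequences are shown for *Fos*, *Fosb* and *Atf3*, which were called in the test of TRCs against control cells (*Atf3* with overlapping groups), and for *Jun*, the usual partner of *Fos*, whose level did not pass the test. They are the 100 bases before the RefSeq transcript start on GRCm38.p6, written 5′ to 3′ on the strand of the gene. Entries were found for 8 of the 10 genes. Capitals mark TGACGT (the core of a cAMP response element), TGACATCA (an AP-1-like element) and TATAAA on either strand, and a match on the opposite strand is printed as its reverse complement.
Fos, chr12:85473790-85473889, plus strand: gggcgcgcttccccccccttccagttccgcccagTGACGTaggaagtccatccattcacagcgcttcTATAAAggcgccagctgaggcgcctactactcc
Fosb, chr7:19310046-19310145, minus strand: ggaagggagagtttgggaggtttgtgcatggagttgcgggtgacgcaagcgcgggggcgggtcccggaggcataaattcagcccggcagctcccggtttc
Jun, chr4:95052223-95052322, minus strand: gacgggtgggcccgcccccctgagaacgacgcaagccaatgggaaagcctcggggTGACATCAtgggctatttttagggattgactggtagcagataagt
Atf3, chr1:191183334-191183433, minus strand: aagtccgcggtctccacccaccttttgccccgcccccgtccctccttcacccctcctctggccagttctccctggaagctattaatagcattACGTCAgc

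In *Fos*, TGACGT lay from 66 to 61 bases before the start and TATAAA from 33 to 28 bases before it. In *Jun*, TGACATCA lay from 45 to 38 bases before the start, and in *Atf3* the TGACGT lay from 8 to 3 bases before it on the opposite strand. Over the 250 bases before the start, TGACGT occurred in 6.47% of 32851 RefSeq windows, TGACATCA in 2.93% and TATAAA in 12.4%. The full elements TGACTCA and TGACGTCA (which contains TGACGT) and the CArG box bound by SRF were also searched on both strands, and occurred in 4.46%, 1.55% and 1.47% of windows. None of these 3 was found in the 250 bases of the 8 genes with an entry. Sites farther from the start were not searched, and *Fosl1* and *Egr1* had no entry. The search therefore cannot show that these genes lack such elements. These matches are matches of letters only, and the data hold no measurement of binding. The RefSeq start of *Atf3* lies inside the longer gene model that was used for positions here, so the window shown is that of an internal start. The windows of *Jund* and *Fosl2* also belong to starts away from the ends of those models, and their sequences are not shown.

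Between 35948295 and 43511554 counts fell on genes per library, so that 3 counts, the smallest number taken as detectable, stand for 0.0689 to 0.0835 CPM (a count scaled to the total of its library), which takes only counting error into account. Between 15.2% and 25.2% of alignments were not unique, most in TRC replicate 3. All 8 melanocyte lineage markers were expressed, with summed levels of 15749 and 18956 CPM in the control libraries and 24025 and 26716 CPM in the TRC libraries. Only *Dct* of them was called. It had 5694 and 4334 CPM in control replicates 1 and 3 and 11154 and 10027 CPM in TRC replicates 1 and 3. *Mitf*, *Sox10*, *Tyr*, *Tyrp1* and *Mlana* overlapped between the groups. Of 8 leukocyte, 8 fibroblast, 6 endothelial and 6 epithelial markers, *Ptprc*, *Itgam*, *Cd3e*, *Adgre1*, *Cdh5*, *Kdr*, *Emcn*, *Krt5* and *Krt14* were listed at 0 in every library, and no list summed to more than 12.1 CPM. The fibroblast sum was higher in control cells, at 10.1 and 12.1 CPM against 3.24 and 5.75 CPM in TRCs. Of the fibroblast markers high enough to test, only *Col1a2* separated the groups. It had 6.70 and 7.79 CPM in the controls and 1.52 and 1.01 CPM in TRCs, while *Pdgfra* and *Col1a1* overlapped.

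Of the 10 genes, 9 had at least 1 CPM in at least 2 libraries and were tested. TRC and control libraries were compared with edgeR's exact test across 11483 genes, with Benjamini-Hochberg adjustment over all of them (FDR). Levels are TMM-normalized CPM, given as mean ± SD over a group, and each log2 fold change has its standard error (SE) from DESeq2. In TRCs, *Fos*, *Fosb* and *Ier3* were upregulated and *Atf3* was downregulated at FDR under 0.05, which is 4 of the 9 genes tested, against 15.9% of all genes tested. Split by direction, 8.81% of all genes were called higher and 7.05% lower in TRCs. For 6 of them the TRC libraries were both above the controls, where 30.2% of all genes did so. For 0 of them the TRC libraries were both below, where 30.4% of all genes did so, and 3 overlapped (60.6% of all genes did not overlap). *Fosb* and *Egr1* reached 1 CPM only in the TRC libraries, so they entered the test through the group in which they were higher. Without these 2 genes, 7 were tested, of which 2 were upregulated and 1 was downregulated, and the TRC libraries were both above the controls for 4 and overlapped with them for 3. In bulk RNA, fewer cells expressing a gene and less RNA per cell cannot be told apart, which holds for every level given here.

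**Figure D1:**
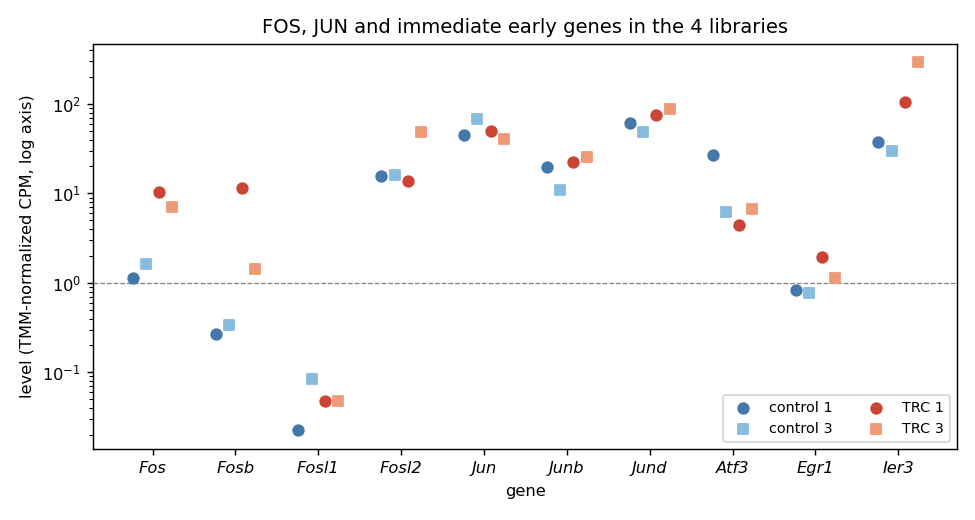
Level of each of the 10 genes in each library, in TMM-normalized CPM on a log axis, with control libraries in blue, TRC libraries in red, replicate 1 as circles and replicate 3 as squares, and the dashed line at 1 CPM. *Fos* and *Ier3* lie higher in both TRC libraries, while *Fosl2* is high only in TRC replicate 3 (49.1 CPM) and *Atf3* only in control replicate 1 (26.8 CPM).

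*Fos* (ENSMUSG00000021250, chromosome 12 from 85473890 to 85477273, plus strand) encodes the founding FOS protein. In control replicates 1 and 3 it was counted 51 and 57 times, and in the TRC libraries of those numbers 432 and 294 times. These are 1.15 and 1.62 CPM in the controls and 10.4 and 7.07 CPM in TRCs. Both TRC libraries lay well above both controls, and no pair of a TRC and a control library differed by less than 1.84 on the log2 scale of CPM plus 0.5. The mean of *Fos* was 1.38 ± 0.33 CPM in the controls and 8.73 ± 2.35 CPM in TRCs (SD, n = 2 each). It rose 6.33-fold, with a log2 fold change of 2.66 (SE 0.44, edgeR exact test FDR = 1.4e-06). It was called in the exact, quasi-likelihood and DESeq2 tests and with each library left out.

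*Fosb* (ENSMUSG00000003545, chromosome 7 from 19302696 to 19310051, minus strand), a close relative of *Fos* with the same pairing behavior, had 12 counts in each control library and 477 and 60 in the TRC libraries. Its level was 0.27 and 0.34 CPM in the controls, while TRC replicate 1 reached 11.5 CPM and TRC replicate 3 reached 1.44 CPM. The groups did not overlap, but the 2 TRC libraries differed from each other by 2.62 on the log2 scale, a larger gap than that of 99.96% of genes tested. The log2 fold change was 4.40 (SE 0.84, edgeR exact test FDR = 1.42e-05), or 21.0-fold. Without TRC replicate 1 it was 2.22 (FDR = 0.0328) and without TRC replicate 3 it was 5.22 (FDR = 2.89e-13), so its size rests on TRC replicate 1.

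*Fosl1* and *Fosl2* encode the FRA proteins, which lack the strong activation domain of FOS. *Fosl1* (ENSMUSG00000024912, chromosome 19 from 5447547 to 5455946, plus strand) had 1 and 3 counts in the controls and 2 and 2 counts in TRCs. All 4 libraries were at or under the detectable share, so no difference was detectable at this depth. Its exons share 1163 bases with *Ccdc85b* on the opposite strand, which had 259 to 380 counts, and the strand setting of the counting is not given in the sources used here. *Fosl2* (ENSMUSG00000029135, chromosome 5 from 32135801 to 32157842, plus strand) had 15.7 and 16.0 CPM in the controls, while TRC replicate 1 had 13.8 CPM and TRC replicate 3 had 49.1 CPM. Only TRC replicate 3 stood apart, and TRC replicate 1 lay below both controls. The log2 fold change of 0.99 (SE 0.47, edgeR exact test FDR = 0.127) did not pass the test. Without TRC replicate 3 it was −0.20 (FDR = 0.877), and without TRC replicate 1 it was 1.62 (FDR = 0.000119), so 1 library decides both its sign and its call.

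The JUN family genes were expressed in all 4 libraries and none was called. *Jun* (ENSMUSG00000052684, chromosome 4 from 95049034 to 95052222, minus strand), the main partner of FOS, had 45.4 and 67.2 CPM in the controls and 49.9 and 40.1 CPM in TRCs. The groups overlapped, with the highest level in control replicate 3 and the lowest in TRC replicate 3. Its log2 fold change was −0.32 (SE 0.27, edgeR exact test FDR = 0.442), with a 95% interval from DESeq2 of −0.86 to 0.21. A change of *Jun* as large as that of *Fos* lies outside this interval.

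*Junb* (ENSMUSG00000052837, chromosome 8 from 84974484 to 84978718, minus strand), a weaker activator than JUN, had 19.7 and 11.0 CPM in the controls and 22.7 and 25.5 CPM in TRCs. The groups did not overlap, with control replicate 1 close below the TRC libraries and control replicate 3 apart from the other libraries. The log2 fold change was 0.65 (SE 0.33, edgeR exact test FDR = 0.2), which did not pass the test. With a library left out it ranged from 0.29 (without control replicate 3) to 1.13 (without control replicate 1). The exons of *Junb* overlap those of *Prdx2* on the opposite strand over 173 bases, and *Prdx2* had 7235 to 11164 counts.

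*Jund* (ENSMUSG00000071076, chromosome 8 from 70698949 to 70700616, plus strand), the JUN protein that resting cells carry, had 61.3 and 48.5 CPM in the controls and 75.4 and 88.4 CPM in TRCs. Both TRC libraries lay above both controls, by 0.30 to 0.86 on the log2 scale. The log2 fold change was 0.58 (SE 0.23, edgeR exact test FDR = 0.0737), which misses the threshold. With a library left out it ranged from 0.42 (without control replicate 3) to 0.75 (without control replicate 1).

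*Atf3* (ENSMUSG00000026628, chromosome 1 from 191170296 to 191218039, minus strand), a stress-induced bZIP factor that pairs with JUN and can repress, had 26.8 and 6.18 CPM in control replicates 1 and 3. The TRC libraries of those numbers had 4.45 and 6.68 CPM. The groups overlapped, and control replicate 1 stood alone, with 1191 counts against 185 to 278 in the other libraries. The log2 fold change of −1.57 (SE 0.56, edgeR exact test FDR = 0.042) was called, although it did not exceed the gap between the control libraries. Without control replicate 1 it was −0.15 (FDR = 0.867), and the call was also lost without TRC replicate 1 (FDR = 0.353) and without TRC replicate 3 (FDR = 0.139). With edgeR's quasi-likelihood test it had an FDR of 0.134.

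*Egr1* (ENSMUSG00000038418, chromosome 18 from 34859823 to 34864984, plus strand) had 37 and 27 counts in the controls and 81 and 47 counts in TRCs. Its level was 0.83 and 0.77 CPM in the controls and 1.95 and 1.13 CPM in TRCs, a low level in every library. The groups did not overlap, but the log2 fold change of 0.94 (SE 0.73, edgeR exact test FDR = 0.24) did not pass the test. *Ier3* (ENSMUSG00000003541, chromosome 17 from 35821684 to 35822923, plus strand) had 37.4 and 29.5 CPM in the controls, and the TRC libraries had 105 CPM (replicate 1) and 291 CPM (replicate 3). Both were far above the controls, and replicate 1 minus replicate 3 came to −1.47 on the log2 scale. *Ier3* rose by 2.56 on the log2 scale (SE 0.39, edgeR exact test FDR = 1.31e-08), or 5.92-fold, and by 1.64 without TRC replicate 3 and 3.10 without TRC replicate 1.

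**Figure D2:**
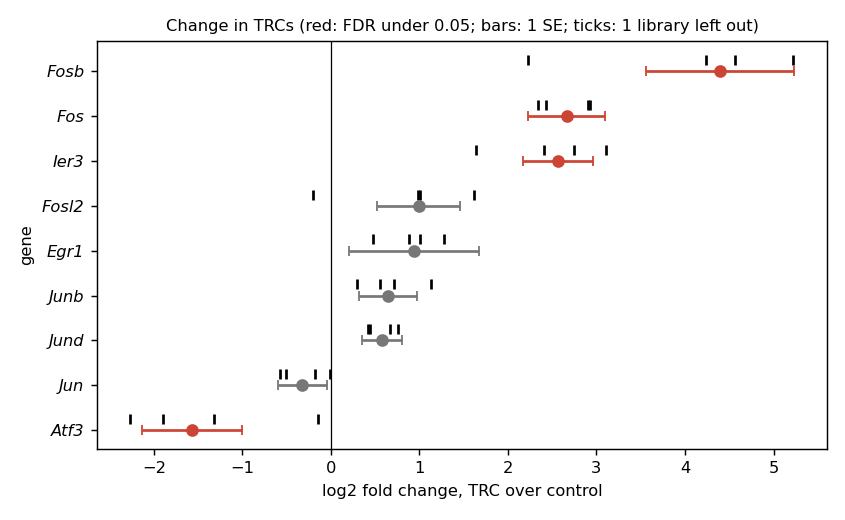
Log2 fold change of TRCs over control cells for the 9 genes tested, with bars of 1 SE, red for FDR under 0.05 and grey for others, and black ticks for the value with each of the 4 libraries left out. *Fos*, *Fosb* and *Ier3* lie above 0 with every library left out, the ticks of *Fosl2* lie on both sides of 0, and 1 tick of *Atf3* lies at −0.15.

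To set the genes side by side, counts were also divided by the length of annotated exons, giving a level in CPM per kb of exon. On this scale *Jund* and *Ier3* were the highest of the 10 genes in every library. *Jund* led in both controls, at 36.8 and 29.1 against 33.1 and 26.1 for *Ier3*, and these neighbors differed by less than their SD between controls. *Ier3* led in both TRC libraries, at 92.6 and 257 against 45.2 and 53.0 for *Jund*. *Jun* was the third in all 4 libraries, at 17.7 ± 4.85 (SD, n = 2) in the controls and 14.1 ± 2.18 (SD, n = 2) in TRCs. *Fosl1* was last in every library, and *Fosb* was next to last in both controls.

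The summed level per length of the FOS family was 2.16 and 2.43 in the 2 control libraries (replicates 1 and 3), against 7.71 and 8.33 in their TRC counterparts. The TRC sums were close to each other, but they were made of different genes. In TRC replicate 1, *Fos* gave 57.3% of the sum, *Fosb* 23.9% and *Fosl2* 18.5%. In TRC replicate 3, *Fosl2* gave 60.9%, *Fos* 36.1% and *Fosb* 2.77%. In the controls *Fosl2* gave 74.9% and 67.8% and *Fos* 22.6% and 28.3%, and the makeup differed little between these 2 libraries.

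The JUN family was far more abundant, with summed levels of 59.6 and 55.0 in the controls and 70.7 and 76.6 in TRCs. *Jund* held the largest share in each library, at 61.8% and 53.0% in the controls and 63.9% and 69.1% in TRCs. The share of *Jun* was 23.9% and 38.4% in the controls and 22.2% and 16.4% in TRCs, and that of *Junb* 14.4% and 8.70% in the controls and 13.9% and 14.5% in TRCs. Relative to the JUN sum, the FOS sum was 3.63% and 4.42% in the controls and 10.9% in both TRC libraries. The 2 groups did not overlap in this ratio, and the difference was larger than the spread between replicates, but the smallest two-sided p of an exact permutation test of 2 against 2 libraries is 0.333, so no test is given.

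**Figure D3:**
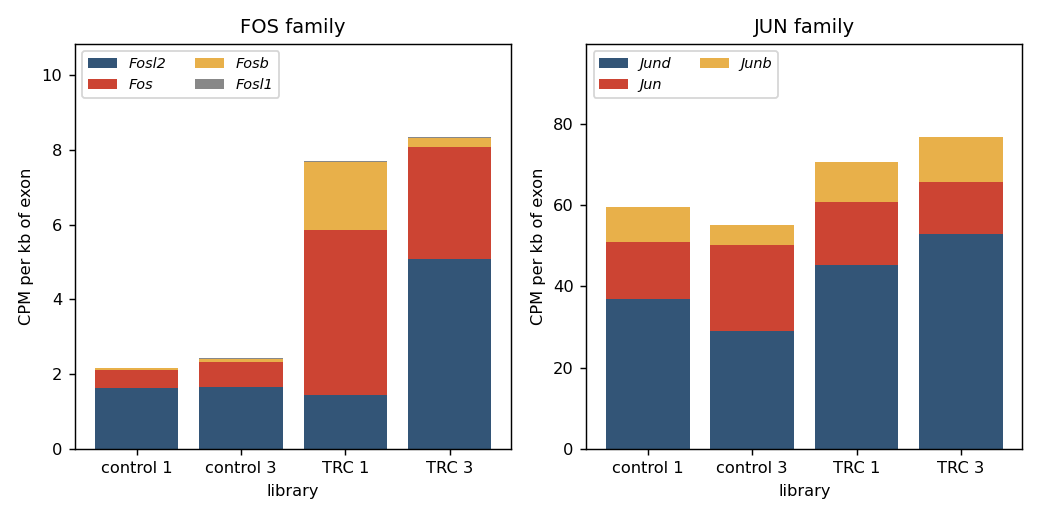
Level per length (CPM per kb of exon) of the FOS family on the left and the JUN family on the right in each library, stacked by gene, with separate axes from 0. The FOS sum is 2.16 to 2.43 in the controls and 7.71 to 8.33 in TRCs, with *Fosb* and *Fos* filling most of TRC replicate 1 and *Fosl2* most of TRC replicate 3, while *Jund* is the largest part of the JUN sum in all 4 libraries.

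Other bZIP proteins pair with FOS or JUN or bind related elements, and 11 of 15 such genes were tested. Of these, 2 were upregulated, 2 downregulated and 7 not called (36.4% called, against 15.9% of all genes tested). The median log2 fold change was −0.66, against 0.0034 over all genes tested. Several of the lower values depended on control replicate 1. Without it, *Jdp2* went from −0.69 to −0.015, *Atf4* from −0.72 to −0.23 and *Ddit3* from −0.88 to 1.19. *Atf2* and *Mafk* went the other way, from −0.15 to −0.19 and from −0.66 to −0.80. The median was not computed without that library. *Maf*, which encodes a large MAF factor, had 26.2 and 20.3 CPM in the controls and 57.8 and 56.1 CPM in TRCs, and its log2 fold change was 1.29 (SE 0.24, edgeR exact test FDR = 9.62e-06). *Maff*, a small MAF without an activation domain and itself an immediate early gene, had 1.98 and 3.66 CPM in the controls and 7.58 and 14.7 CPM in TRCs, and its log2 fold change was 1.99 (SE 0.47, edgeR exact test FDR = 0.00126). The small MAF gene *Mafg* moved the other way, from 160 and 157 CPM in the controls to 80.2 and 88.5 CPM in TRCs, and its log2 fold change was −0.91 (SE 0.19, edgeR exact test FDR = 0.00115). For these 3 genes the groups did not overlap. The call of *Maf* held with each library left out, that of *Maff* was lost without TRC replicate 3 (FDR = 0.134) and that of *Mafg* without TRC replicate 1 (FDR = 0.0753).

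*Creb5*, a CREB family member that can pair with JUN, had 6.03 and 2.18 CPM in the controls and 0.96 and 1.49 CPM in TRCs, and its log2 fold change was −1.74 (SE 0.64, edgeR exact test FDR = 0.0194, quasi-likelihood test FDR = 0.0924). The call of *Creb5* was lost without control replicate 1 (FDR = 0.336), TRC replicate 1 (FDR = 0.302) or TRC replicate 3 (FDR = 0.112). *Jdp2*, a repressor of AP-1, was high only in control replicate 1, at 45.7 CPM against 18.9 to 22.3 CPM in the other libraries. *Batf3*, which pairs with JUN in immune cells, had 37 and 43 counts in the controls and 14 and 11 counts in TRCs. Its relative *Batf* went the other way, with 12 and 12 counts in the controls and 28 and 24 counts in TRCs. Both were too low to be tested.

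Upstream of the group, 30 of 31 genes for MAPK pathway kinases, SRF and its partners were tested. Of these, 3 were upregulated and 0 downregulated (10% called, against 15.9% of all genes), and 8 passed 0.05 in edgeR's exact test before adjustment, 3 of them lower in TRCs. The quasi-likelihood test also called 3 higher and 0 lower, and DESeq2 called 3 higher and 1 lower. *Map3k1*, a kinase at the head of the JNK and ERK branches, had 30.6 and 39.1 CPM in the controls and 85.9 and 125 CPM in TRCs, and its log2 fold change was 1.60 (SE 0.27, edgeR exact test FDR = 8.5e-08). *Map2k1*, which encodes the ERK kinase MEK1, had 99.4 and 108 CPM in the controls and 170 and 246 CPM in TRCs, and its log2 fold change was 1.0 (SE 0.24, edgeR exact test FDR = 0.00144). *Mapk3*, which encodes ERK1, had 106 and 90.2 CPM in the controls and 247 and 204 CPM in TRCs, and its log2 fold change was 1.2 (SE 0.21, edgeR exact test FDR = 1.74e-05). These 3 genes stand at 3 successive tiers of kinase signaling, and none of them overlapped between the groups. The call of *Map2k1* was lost without TRC replicate 3 (FDR = 0.12), and those of the other two held with each library left out. mRNA levels say nothing of the phosphorylation that makes these kinases active, which was not measured here.

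SRF and the ternary complex factors, which act at the promoters of *Fos* and *Egr1* in response to ERK signaling, were expressed in all libraries and not called. *Srf* had 53.6 and 47.2 CPM in the controls and 37.0 and 44.8 CPM in TRCs, with a log2 fold change of −0.30 (SE 0.23, edgeR exact test FDR = 0.43). The log2 fold changes were 0.30 for *Elk1* (FDR = 0.425), 0.52 for *Elk3* (FDR = 0.0974) and −0.32 for *Elk4* (FDR = 0.395), all from edgeR's exact test. The gene for JNK3, *Mapk10*, had no count in any library.

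Among 14 genes tested for phosphatases, ligases and mRNA-decay factors that restrain AP-1, 1 was upregulated, 2 were downregulated and 11 were not called (21.4% called, against 15.9% of all genes tested). *Zfp36l2*, an RNA-binding protein that speeds decay of short-lived mRNAs, fell from 87.7 and 93.3 CPM in the controls to 32.6 and 33.8 CPM in TRCs, and its log2 fold change was −1.45 (SE 0.20, edgeR exact test FDR = 1.18e-08). Its relative *Zfp36l1* rose from 44 and 44.4 CPM to 83.5 and 61.7 CPM, a log2 fold change of 0.72 (SE 0.24, edgeR exact test FDR = 0.0224). *Dusp16*, a phosphatase for JNK and p38, had a log2 fold change of −0.65 (SE 0.24, edgeR exact test FDR = 0.0429). The latter pair had an FDR above 0.05 in the quasi-likelihood test, at 0.0573 for *Zfp36l1* and 0.081 for *Dusp16*. *Zfp36l1* kept its call only without TRC replicate 3 (FDR from 0.0748 to 0.399 without any other library), and *Dusp16* only without control replicate 3 (FDR from 0.124 to 0.37 without any other library).

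Of 42 other immediate early genes, 35 were tested, of which 3 were upregulated, 2 downregulated and 30 not called. This is 14.3% called, near the 15.9% of all genes tested, and the median log2 fold change was −0.13. *Bhlhe40*, a transcriptional repressor, had 57.9 and 93.5 CPM in the controls and 175 and 380 CPM in TRCs, and its log2 fold change was 1.87 (SE 0.36, edgeR exact test FDR = 8.98e-06). *Nfkbiz*, an NF-κB cofactor, rose by 1.44 on the log2 scale (SE 0.31, edgeR exact test FDR = 0.00244), and *Klf10*, a zinc finger repressor, by 1.14 (SE 0.37, edgeR exact test FDR = 0.0189). *Ccn1*, a secreted matrix protein, fell by 0.92 on the log2 scale (SE 0.27, edgeR exact test FDR = 0.011), and *Id3*, an inhibitor of helix-loop-helix factors, by 1.55 (SE 0.44, edgeR exact test FDR = 0.00715). *Egr2*, *Egr3* and *Egr4*, the relatives of *Egr1*, had at most 7 counts in any library and were not tested. Only *Bhlhe40* kept its call with each library left out. Calls were lost without control replicate 1 for *Ccn1* (FDR = 0.0584) and *Id3* (FDR = 0.279), without control replicate 3 for *Klf10* (FDR = 0.239), and without TRC replicate 1 for *Nfkbiz* (FDR = 0.0553). Without TRC replicate 3, *Nfkbiz*, *Klf10*, *Ccn1* and *Id3* all lost theirs (FDR = 0.0679, 0.569, 0.229 and 0.181).

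Among 32 genes with AP-1 sites known from textbooks, 18 were tested, and 4 were upregulated, 2 downregulated and 12 not called (33.3% called, against 15.9% of all genes tested), with a median log2 fold change of 0.041. The protease genes *Mmp3*, *Mmp9*, *Mmp10* and *Mmp13*, classical AP-1 targets, had at most 3 counts in any library. *Itgb3*, an integrin subunit, had 14.6 and 6.72 CPM in the controls and 38.4 and 40.2 CPM in TRCs, and its log2 fold change was 1.88 (SE 0.36, edgeR exact test FDR = 9.6e-06). The metallothionein gene *Mt1* and the secreted protein gene *Spp1* had log2 fold changes of 1.07 and 1.47 (edgeR exact test FDR = 0.00732 and 0.0416). *Mt1* lost its call without either control library (FDR = 0.0611 and 0.0903) and without TRC replicate 3 (FDR = 0.396), and *Spp1* without control replicate 3 (FDR = 0.374) or TRC replicate 3 (FDR = 0.481). The falling pair were *Sqstm1*, an autophagy receptor, with a log2 fold change of −1.18 (SE 0.18, edgeR exact test FDR = 1.26e-05), and *Gclc*, which starts glutathione synthesis, with −0.99 (SE 0.20, edgeR exact test FDR = 0.000241). Both are known targets of NRF2, another bZIP factor, as well.

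The libraries of a group differed in several of these genes. In the controls, *Atf3* was higher in replicate 1 by 2.03 on the log2 scale of CPM plus 0.5, a larger gap than that of 99.73% of genes tested. Of the 11 other bZIP genes tested, 8 were higher in control replicate 1, 3 of them by more than 1 on the log2 scale and 0 lower by that much. Of all genes tested, 3.61% differed by more than 1 in either direction. That share also leaned to one side, with 352 genes higher in control replicate 1 and 63 higher in control replicate 3. *Ddit3*, the stress factor CHOP, had 139 CPM in control replicate 1 and 18.8 CPM in control replicate 3, and *Atf4*, which drives *Atf3* and *Ddit3* in the integrated stress response, had 837 and 465 CPM. In TRC replicates 1 and 3 they had 31.0 and 54.8 CPM and 299 and 492 CPM. *Nr4a3*, an immediate early nuclear receptor, showed the widest gap of the genes in these lists, with 77.8 CPM in control replicate 1, 5.50 CPM in control replicate 3, and 130 and 142 CPM in TRCs. *Nr4a3* and *Ddit3* are named for this gap, after their values were seen. *Atf4*, with a smaller gap of 0.85, is named for its known link to *Atf3*, also after its values were seen. Of the 35 other immediate early genes tested, 3 were higher in control replicate 1 by more than 1 on the log2 scale. In the other direction there was 1, *Ccn2*, where replicate 1 minus replicate 3 was −1.71. Whether *Nr4a3*, *Ddit3* or *Atf4* bears on the level of *Atf3* in control replicate 1 was not tested.

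In TRCs, the wide gaps were those of *Fosb*, higher in replicate 1 by 2.62, and of *Fosl2* and *Ier3*, where replicate 1 minus replicate 3 was −1.79 and −1.47. Of the 9 genes tested, 33.3% differed by more than 1 on the log2 scale between the TRC libraries, where 3.20% of all genes did. *Fos* had a gap of 0.53 with the higher level in replicate 1, on the side of *Fosb*.

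**Figure D4:**
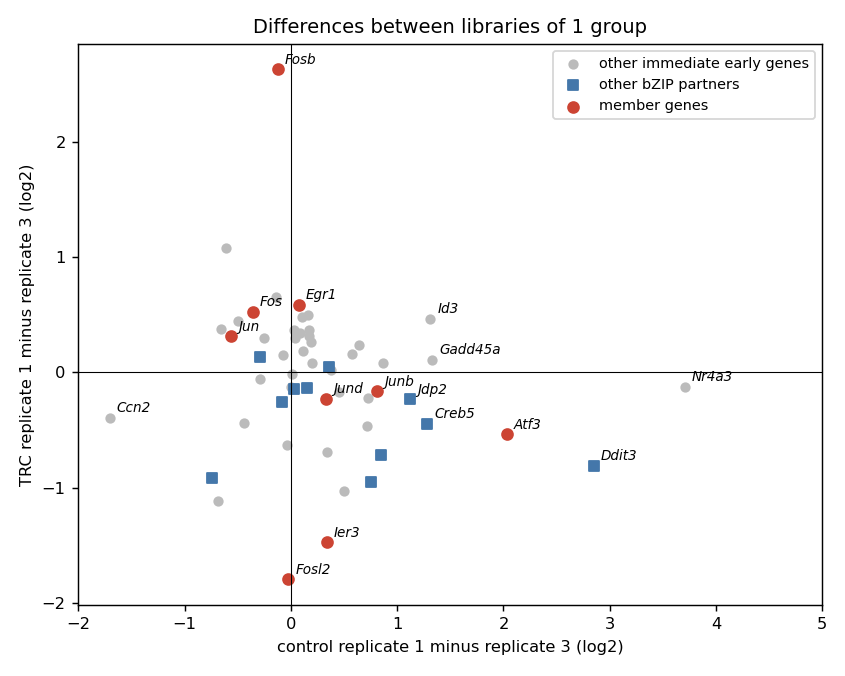
Log2 difference of replicate 1 minus replicate 3 within the control group (horizontal axis) and within the TRC group (vertical axis), on CPM plus 0.5, for the 9 genes tested (red circles), other bZIP partners (blue squares) and other immediate early genes (grey circles). *Atf3* and *Ddit3* lie to the right, at 2.03 and 2.85, *Fosb* lies at the top, at 2.62, and *Fosl2* and *Ier3* lie at the bottom, at −1.79 and −1.47.

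The genes with the most similar course to *Fos* over the 4 libraries, by Euclidean distance of centered log2 levels of CPM plus 0.5, were *Ptgds* (0.17), *Trib2* (0.18) and *Trpm1* (0.20). *Trpm1*, a melanocyte channel gene, had 30.1 and 41.9 CPM in the controls and 243 and 161 CPM in TRCs. *Ptgds*, which encodes a prostaglandin synthase, had 426 and 486 CPM in the controls and 2576 and 1664 CPM in TRCs. The genes nearest to *Jun* were *Fzd7* (0.039), *Hnrnpd* (0.048) and *Enc1* (0.055), none of them called. With 4 libraries and 11483 genes, close courses of this kind are a description only.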

How the data were processed

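RNA-seq counts of 2 parental B16F1 control and 2 TRC libraries were analysed. The authors prepared stranded single-end libraries, used Trimmomatic 0.35 for trimming and HTSeq for counting on Ensembl genes, and the submitters' processing notes also name TopHat2 2.1.0, Bowtie2 2.2.6, SAMtools 1.3, CASAVA 1.8.2 and the build GRCm38. The deposited values are raw counts per gene, and the counting mode and strand setting are not given in the sources used here. Nothing states that samples came from separate cultures, so p-values measure the spread between these samples, which may be technical.

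The rows that are totals and not genes were removed (15.2% to 25.2% of alignments were not unique). A gene was removed when under 1 CPM in at least 3 samples. The exact test used TMM factors (0.957 to 1.04) and a prior count of 0.125 (edgeR 4.0.16, R 4.3.3). SE values and intervals came from DESeq2 1.42.0. Symbols, positions and exon lengths came from GENCODE M21 on GRCm38, and promoter windows from RefSeq on GRCm38.p6. The tests were tested on simulated data. Figures were drawn with matplotlib 3.10.9.

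The genes and lists were chosen with earlier results of these data known. The text names all 10 genes, called bZIP partners, up to 3 called genes per direction from each other list, SRF and ELK genes, and the 3 genes nearest to *Fos* and *Jun*. Other genes are named beside counts of low or uneven genes, chosen after their values were seen. Alternatives were other filters, size factors, tests, prior count, gene length and each library left out.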

Additional observations from a re-analysis of the deposited data

How the results depend on the processing

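With each library left out in turn, where the lone library of a group is assumed to vary like the other group, the log2 fold change ranged from 2.34 to 2.92 for *Fos*, 2.22 to 5.22 for *Fosb*, −0.20 to 1.62 for *Fosl2*, −0.58 to −0.011 for *Jun*, 0.29 to 1.13 for *Junb*, 0.42 to 0.75 for *Jund*, −2.27 to −0.15 for *Atf3*, 0.48 to 1.27 for *Egr1* and 1.64 to 3.10 for *Ier3*. The count called ranged from 773 to 1932 for all genes and from 3 to 5 for the group, from 2 to 7 for bZIP partners, 2 to 5 for upstream genes, 1 to 3 for restraining factors, 1 to 6 for other immediate early genes and 3 to 7 for genes with AP-1 sites. The direction of *Fosl2* turned to −0.20 without TRC replicate 3. Without control replicate 1 the group had 5 calls, all higher in TRCs. The quasi-likelihood test without a replicate block called 1054 genes where the exact test called 1822, with 1 restraining factor, 3 other immediate early genes and 3 genes with AP-1 sites. *Atf3* lost its call in it at −1.57 (FDR = 0.134), and with no filter on low counts at −1.60 (FDR = 0.0697), a setting that also left 1 restraining factor. DESeq2's Wald test kept all calls of the group.

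The numbers 1 and 3 do not pair the samples by any label, and the correlation across genes between control and TRC deviations of equal number was r = 0.027. Adding the replicate block to that test left 785 genes, with 2 of the group (*Fos* and *Ier3*), 1 restraining factor and 2 other immediate early genes. There *Fosb* had 3.85 (FDR = 0.053) and *Atf3* −1.25 (FDR = 0.262). With the length of the longest transcript in place of all exons, the summed FOS level per length was 3.18 in the controls and 10.7 in TRCs, the ratio of FOS to JUN 5.42% and 14.0%, the share of *Fos* 20.5% and of *Fosb* 2.52% in the controls, of *Fosl1* 0.24% in TRCs, and of *Junb* 17.4% in TRCs. The causes of these differences were not tested. Depth limits *Fosl1*, *Egr1* and *Fosb* in the controls most, where counts were lowest. *Fosb* and *Egr1* could not be tested when 1 CPM was required in at least 3 samples.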
